A study of Mus musculus with 10 samples.

Results

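The genes described here were 10 genes of DNA replication: Mcm2, Mcm3, Mcm4, Mcm5, Mcm6, Mcm7, Cdc6, Pola2, Pcna and Rrm2. They were found among 18193 mouse genes with a probe set annotated to a single gene symbol, and each was represented by whichever of its probe sets was brightest on average over the arrays. Of the 10 genes, 9 lay above the level set for testing and were tested among 11059 genes. The other, Cdc6, lay below it in the mean, and its values are given without a test.

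Livers were from females of the inbred mouse strains DBA/2J (D2) and C57BL/6J (B6), given a diet rich in fat and cholesterol. The groups were D2 livers at 1, 4, 12 and 21 weeks on the diet, D2 livers at week 0, B6 livers at 1, 4, 12 and 21 weeks, and B6 livers at week 0. Each strain and week was a pool of RNA from 5 mice in equal amounts, and each of the 10 pools was read on 1 Affymetrix mouse genome array. The spread between single mice is therefore not in the data, age rose together with the weeks, and the number of arrays limits the precision of every value. All 10 hepatocyte markers looked at were detected, with albumin (Alb) at 12.51 or above in every array on the log2 scale used below. The 2% trimmed mean of the deposited signal ranged from 56.2 in the B6 week 0 array to 89.1 in the B6 week 1 array, and was lowest in both week 0 arrays. One array stood apart in the replication genes: the B6 week 1 array held the highest value of all 10 arrays for 9 of the 10 genes. The share of all genes highest in that array is not given here, so this count has no background. Levels are log2 of the quantile-normalised signal plus 1.05, and a difference of 1 on this scale is a change of 2-fold. The scale is compressed for dim genes, and levels are compared between arrays for the same probe set, not between genes.

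A cell copies its DNA from origins that are licensed before S phase. The origin recognition complex, Cdc6 and Cdt1 load the MCM2-7 complex onto DNA, where it becomes the core of the replicative helicase, and DNA polymerase alpha with its primase starts each new strand. The sliding clamp PCNA then holds the elongating polymerases on the template, and ribonucleotide reductase supplies the deoxynucleotides. Most hepatocytes of an adult mouse are quiescent and express these genes at low levels, and in cells that enter the cycle their transcripts rise towards S phase under E2F transcription factors.

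The stretches before the transcription starts of some of these genes are shown beside their levels. All 10 genes were higher at B6 week 1 than at week 0, but over the arrays they followed each other unevenly, as described below. RefSeq promoter windows (build GRCm38.p6, 250 bases before to 50 after the start) matched 9 of the 10 genes, all but Mcm4, with 2 windows for Mcm7. Both strands were searched for the E2F-type motifs TTTCCCGC, TTTCGCGC, TTTGCCGC and TTTGGCGC, for the CCAAT box (CCAAT) and for the cell cycle homology region, CHR (TTTGAA). An E2F-type motif was present in the windows of 5 of the 9 genes, Mcm3, Mcm5, Mcm6, Mcm7 and Cdc6, against 2.26% of all 32851 promoter windows. The CCAAT box was present in 7 of the 9 genes, against 37.4% of all windows, and the CHR in Mcm2 alone, against 17.9%. Neither motif of the first 2 kinds was in the window of Pola2. A match describes the letters only and is not evidence that a factor binds there. Any part of E2F factors in the levels of these genes was not tested.

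The sequences below run 5′ to 3′ over the 170 bases before the start, with matches to E2F-type motifs and CCAAT boxes on either strand in capitals. Overlapping E2F-type matches on opposite strands form the long capital run near the left end of Mcm5 and the left one of the 2 E2F-type runs in Mcm6. Their positions were Mcm5 at chr8:75109339-75109508 (plus strand), Mcm6 at chr1:128359706-128359875 (minus strand), Mcm7 at chr5:138171884-138172053 (minus strand), Cdc6 at chr11:98907981-98908150 (plus strand), Rrm2 at chr12:24708084-24708253 (plus strand) and Pola2 at chr19:5964207-5964376 (minus strand).
Mcm5: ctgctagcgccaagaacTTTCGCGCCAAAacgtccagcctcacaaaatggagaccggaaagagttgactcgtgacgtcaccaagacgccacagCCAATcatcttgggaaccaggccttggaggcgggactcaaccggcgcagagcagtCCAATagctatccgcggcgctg
Mcm6: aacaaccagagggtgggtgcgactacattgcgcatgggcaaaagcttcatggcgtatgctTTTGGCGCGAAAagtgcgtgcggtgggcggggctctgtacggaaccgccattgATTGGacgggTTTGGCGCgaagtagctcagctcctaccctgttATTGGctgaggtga
Mcm7: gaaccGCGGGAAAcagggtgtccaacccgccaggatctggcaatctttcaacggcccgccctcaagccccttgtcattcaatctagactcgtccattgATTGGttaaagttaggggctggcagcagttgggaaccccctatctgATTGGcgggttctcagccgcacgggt
Cdc6: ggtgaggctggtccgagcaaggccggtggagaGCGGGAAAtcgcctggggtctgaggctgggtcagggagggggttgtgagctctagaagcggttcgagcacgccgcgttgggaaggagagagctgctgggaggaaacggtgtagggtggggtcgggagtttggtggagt
Rrm2: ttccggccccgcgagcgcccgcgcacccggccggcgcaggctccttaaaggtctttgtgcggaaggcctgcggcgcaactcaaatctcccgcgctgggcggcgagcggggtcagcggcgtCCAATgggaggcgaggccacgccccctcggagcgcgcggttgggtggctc
Pola2: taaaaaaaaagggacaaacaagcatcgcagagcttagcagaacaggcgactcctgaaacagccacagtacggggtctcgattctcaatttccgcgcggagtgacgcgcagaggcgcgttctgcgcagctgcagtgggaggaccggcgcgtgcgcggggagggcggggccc

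In B6 livers, all 10 genes were higher after 1 week of diet than at week 0, by 1.37 to 4.71 on the log2 scale with a median of 2.56. With a pseudocount of 16 in place of 1.05, which damps the differences of dim genes, that median was 1.53. Mcm5 differed most, with a level of 8.10 at week 1 against 3.38 at week 0, and because the week 0 level lay below the 3.74 set for testing the size of this difference is uncertain. In D2 livers the same genes differed by −0.81 to 2.18 with a median of 0.27, and only Pola2 and Cdc6 were higher by at least 1. There is 1 array for each strain and week, so these single-week differences have no test, and a size of 1 on the log2 scale is used to count them. A whole-liver pool cannot tell more cells of a type from more RNA per cell.

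**Figure D1:**
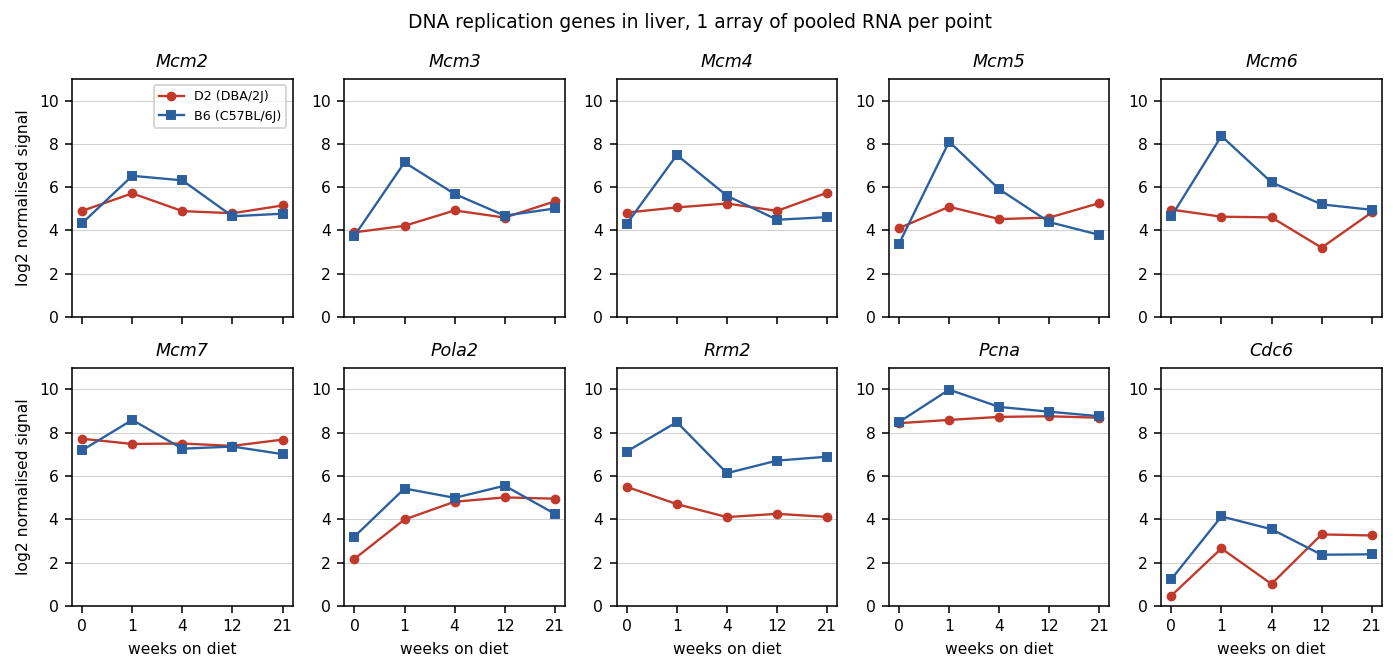
Log2 normalised signal of each gene (y axis) at 0, 1, 4, 12 and 21 weeks on the diet (x axis, weeks evenly spaced) in D2 (circles) and B6 (squares), 1 array of RNA pooled from 5 mice per point and no error bars. In B6, 9 of the 10 genes have their highest value at week 1, while Rrm2 lies lower in D2 than in B6 at all 5 weeks.

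Of the 6 helicase genes, Mcm5 and Mcm6 differed most between week 1 and week 0 in B6. Mcm5 was at 4.10, 5.09, 4.52, 4.59 and 5.26 in D2 livers at weeks 0, 1, 4, 12 and 21, against 3.38, 8.10, 5.90, 4.38 and 3.79 in B6 livers. Mcm6 was at 4.96, 4.63, 4.60, 3.20 and 4.83 in D2, against 4.64, 8.36, 6.22, 5.20 and 4.95 in B6. In both genes the B6 arrays of weeks 1 and 4 lay above every D2 array, and the B6 week 0 array lay within or below the D2 values. Mcm3 was at 3.91, 4.21, 4.92, 4.59 and 5.34 in D2, against 3.75, 7.14, 5.68, 4.68 and 5.01 in B6. Mcm4 was at 4.82, 5.06, 5.24, 4.90 and 5.74 in D2, against 4.30, 7.48, 5.60, 4.49 and 4.61 in B6. For Mcm3 too the B6 levels of weeks 1 and 4 exceeded all D2 levels, whereas for Mcm4 only that of week 1 did, and the highest D2 level of both genes was at week 21. Mcm2 was at 4.90, 5.71, 4.89, 4.79 and 5.15 in D2, against 4.33, 6.52, 6.31, 4.65 and 4.77 in B6, so that its B6 levels of weeks 1 and 4 lay within 0.21 of each other. Mcm7 was at 7.72, 7.48, 7.50, 7.39 and 7.68 in D2, against 7.19, 8.59, 7.26, 7.36 and 7.01 in B6. Mcm7 had the smallest difference of the 6 genes between week 1 and week 0 in B6, 1.40, and from week 4 on its B6 levels differed from week 0 by −0.18 to 0.17.

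The other 4 genes did not share a single pattern. Pcna, the sliding clamp, was at 8.44, 8.59, 8.73, 8.76 and 8.69 in D2, against 8.49, 9.99, 9.19, 8.97 and 8.76 in B6, the strains lying within 0.05 at week 0 and 0.07 at week 21. Its deposited signal in B6 was 1160 at week 1, against 267 at week 0. Pola2, the B subunit of DNA polymerase alpha, was at 2.17, 3.99, 4.81, 5.01 and 4.95 in D2, against 3.20, 5.42, 4.99, 5.55 and 4.25 in B6. Pola2, like Mcm3, Mcm4, Mcm5 and Pcna, was higher in every fed array than at week 0 in both strains, and its highest level was in B6 at week 12. Cdc6, which loads the helicase, was dim throughout, at 0.47, 2.65, 1.01, 3.30 and 3.25 in D2, against 1.23, 4.13, 3.54, 2.36 and 2.38 in B6. Its deposited signals spanned 0.31 to 19.7, so its differences are measured on signals near the bottom of the range. Rrm2, the small subunit of ribonucleotide reductase, was at 5.50, 4.70, 4.10, 4.25 and 4.11 in D2, against 7.13, 8.49, 6.13, 6.71 and 6.89 in B6. The ranges of the strains did not overlap for Rrm2, every fed D2 array lay below the D2 week 0 array, and in B6 only week 1 lay above week 0. How many of all genes showed no overlap is not given here.

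Counted over all weeks, the excess over week 0 in B6 was widest at week 1. At B6 week 1, 10 of the 10 genes were higher than at week 0 by at least 1, against 5.61% of the 11059 genes kept, or 10.7% when all 18193 genes including dim ones such as Cdc6 were counted. At B6 week 4 there were 7 of 10, with a median of 1.68, against a background of 9.37%. At B6 week 12 there were 2 of 10 (median 0.52, background 3.5%), and at B6 week 21 there were 3 of 10 (median 0.36, background 5.03%). In D2 the counts were 2 of 10 at week 1 (background 3.07%, or 8.89% with dim genes), 2 at week 4 (3.54%), 2 at week 12 (3.53%) and 4 at week 21 (3.64%), with medians of 0.27, 0.36, 0.20 and 0.59. Pola2 was among those counted in D2 at each of the 4 weeks. The dim gene Cdc6 was also counted at B6 weeks 4, 12 and 21 and at D2 weeks 12 and 21. The shares for those weeks cover genes kept only, and none with dim genes is given here. Genes lower than week 0 by at least 1 were Rrm2 in D2 at weeks 4, 12 and 21, Mcm6 in D2 at week 12, and none in B6. Of the 11059 genes kept, 371, 402 and 352 were lower by at least 1 in D2 at weeks 4, 12 and 21. Rrm2 at B6 week 4 and Mcm5 at B6 week 12 fell short of this size only in the third decimal place. The median of all genes kept was within 0.03 of 0 in each of these 8 comparisons. The 4 differences of a strain share its week 0 array.

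**Figure D2:**
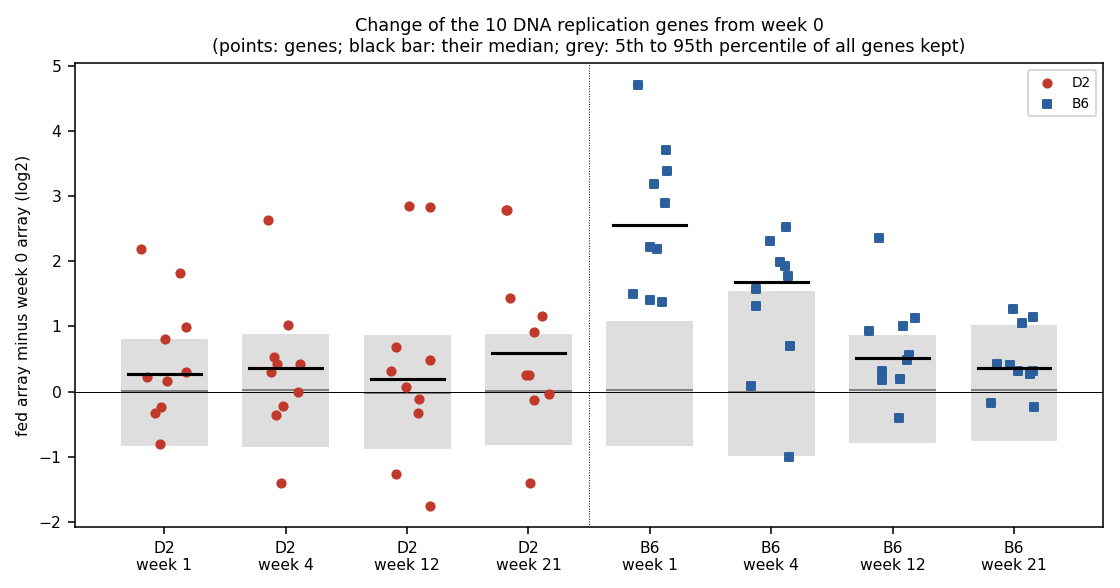
Difference of each fed array from the week 0 array of its strain (y axis, log2) for the 10 genes, D2 (circles) at the left and B6 (squares) at the right, with the gene median as a black bar and a grey band for the central 90% of all 11059 genes. The B6 week 1 points all lie at 1.37 or above, and the D2 medians lie between 0.20 and 0.59.

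Set against B6 at the same week, D2 levels were lower at week 1 for all 10 genes, by 0.81 for Mcm2 up to 3.80 for Rrm2, with a median difference of −1.95. Of the 10 genes, 9 were lower in D2 by at least 1 at week 1, where 4.42% of genes kept were. Before the diet the strains lay closer, with a median of 0.24 and 2 genes, Pola2 and Rrm2, lower in D2 by at least 1 (background 3.39%). At week 4 there were 5 such genes (median −1.07, background 7.79%), at week 12 there were 2, Mcm6 and Rrm2 (median −0.03, background 3.58%), and at week 21 only Rrm2 (median 0.53, background 4.42%). Cdc6 was among the genes counted at weeks 1 and 4, whereas the shares beside these counts cover genes kept only. At week 21 Mcm4 and Mcm5 were higher in D2, by 1.14 and 1.47, where 366 of the 11059 genes kept were higher by at least 1. Mcm6 thus differed by −3.73 at week 1 and by −0.12 at week 21, whereas Rrm2 differed by −1.62 or further from 0 at every week.

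**Figure D3:**
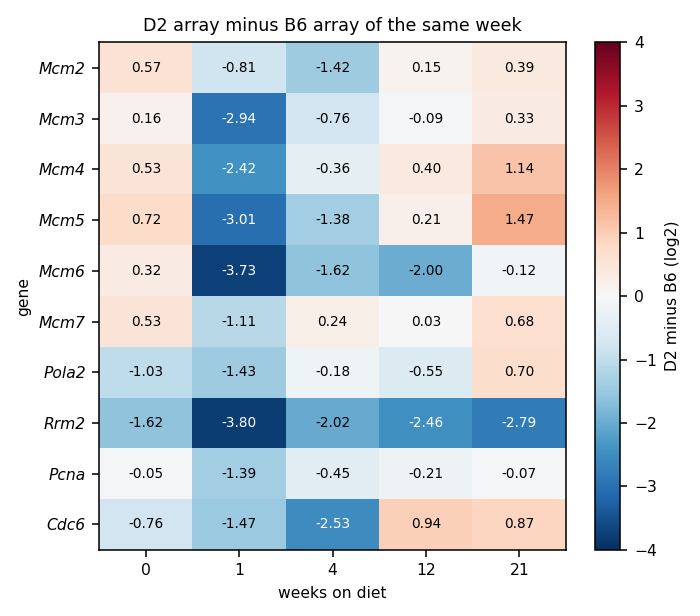
D2 level minus B6 level of each gene (rows) at each week (columns), on the log2 scale, blue where D2 was lower and red where it was higher, 1 array per strain and week. The week 1 column holds values from −3.80 to −0.81, and the Rrm2 row is below −1 at every week.

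Tested over all weeks, Rrm2 was the only member to pass in the comparison of the strains. Its D2 minus B6 difference was −2.54 ± 0.28 (SE, n = 5 arrays for each strain, limma with week as a block, adjusted p = 0.00179), and D2 lay below B6 at 5 of 5 weeks. Without both week 1 arrays the difference was −2.22 ± 0.21 (limma adjusted p = 0.0028), and the other 2 Rrm2 probe sets averaged −2.76 and −2.23. Pcna was also below B6 at 5 of 5 weeks, but its difference of −0.44 ± 0.19 did not pass (adjusted p = 0.21), nor did that of Mcm6, −1.43 ± 0.52 (adjusted p = 0.144). The other 6 tested genes differed by −0.66 to 0.07 and did not pass. Of the 9 tested genes, 1 was called, a count near the 7.98% of all genes tested. The median over the 9 was −0.44, against 0.01 for all genes. Without both week 1 arrays that median was −0.09, and Mcm4 and Mcm5 turned to 0.43 and 0.26.

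When the 8 fed arrays were compared with both week 0 arrays, with strain as a term, Pola2 was the 1 member that passed. It was higher in fed livers by 2.18 ± 0.37 (SE, 8 fed and 2 week 0 arrays, limma adjusted p = 0.0361), and in 8 of 8 fed arrays. With a pseudocount of 16 no member was called, whereas with no filter on dim genes 1 was. Both Pola2 levels at week 0, 2.17 in D2 and 3.2 in B6, lay below the 3.74 set for testing. Pola2 thus reached the test only through the fed arrays, the group found higher, and the size of its difference is uncertain. Its call was lost without either week 0 array, B6 week 1, D2 week 4 or D2 week 21 (limma adjusted p up to 0.234), and without both week 1 arrays it was 2.24 ± 0.37 (adjusted p = 0.043). The other 2 Pola2 probe sets lay below the level set for testing and differed by 0.32 and −1.39 at B6 week 1, so the Pola2 result rests on 1 probe set. Mcm3, Mcm4, Mcm5 and Pcna were above week 0 in 8 of 8 fed arrays too, with differences of 1.37 ± 0.54, 0.83 ± 0.62, 1.46 ± 0.86 and 0.50 ± 0.25 that did not pass (adjusted p between 0.231 and 0.513). Mcm2 differed by 0.73 ± 0.49, Mcm6 by 0.45 ± 0.80, Mcm7 by 0.08 ± 0.32 and Rrm2 by −0.64 ± 0.49, none past the threshold. The 1 call among 9 genes, whose median was 0.73, compares with 0.651% of all genes and a median of 0.01. The median over the 9 genes was 0.50 without the B6 week 1 array and 0.48 without both week 1 arrays, and it was 1.25 without the D2 week 0 array and 0.26 without the B6 week 0 array.

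Within the strains no member passed. In B6 the fed minus week 0 median over the 9 genes was 1.25, the largest differences being 2.16 ± 1.24 for Mcm5 and 1.88 ± 0.77 for Mcm3. Of the 9 genes, 2 had an unadjusted p below 0.05, Mcm3 and Pola2 (1.85 ± 0.53). The smallest adjusted p was that of Pola2 (limma adjusted p = 0.241, background 0.118% called). Without the B6 week 1 array this B6 median was 0.81. In D2 the median was 0.26 and 1 gene, Pola2 at 2.52 ± 0.53, had an unadjusted p below 0.05 (limma adjusted p = 0.122, background also 0.118%). The difference between the strains in the fed minus week 0 change was negative for 8 of the 9 genes, with a median of −0.99, but none was called or had an unadjusted p below 0.05. That median was −0.52 without the B6 week 1 array and −0.33 without both week 1 arrays. The smallest adjusted p among them was 0.902 for Mcm6, at −2.18 ± 1.55, and 0.00904% of all genes, a single gene, were called. A mean over 4 fed weeks is set here against 1 week 0 array, and the spread between fed weeks that enters these errors holds the B6 week 1 peak itself. Over the fed weeks the slope on log2(week) was negative for 8 of the 9 genes, with −0.49 ± 0.18 for Mcm5, −0.44 ± 0.16 for Mcm6 and −0.31 ± 0.09 for Mcm2 per doubling of the time. These 3 had an unadjusted p below 0.05 but none passed (limma, smallest adjusted p 0.972), and 0% of all genes were called, with 523 of 11059 at an unadjusted p below 0.05. Without the B6 week 1 array the median slope was −0.02, against −0.23 with it.

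Most genes had more than 1 probe set, and these were compared. The array holds 27 probe sets for the 10 genes, of which 22 were highest in B6 at week 1. The share of all probe sets on the array that were highest there is not given here. Of the 19 above the level set for testing 18 were highest there, the exception being that of Pola2, and of the 8 below it 4 were, with differences from week 0 at B6 week 1 of −1.39 to 4.99. The level set for testing applies to a mean that includes the B6 week 1 array itself. By the mean of the other 9 arrays 18 probe sets passed, and 17 of them were highest in B6 at week 1. The 10 of these 19 that were not used to represent a gene were higher at B6 week 1 than at week 0 by 0.89 to 4.42. The probe sets used for Mcm2, Mcm3, Mcm5, Mcm7, Rrm2 and Cdc6 are of types that can bind more than 1 transcript. For Mcm5, a probe set without that limit differed from week 0 by −0.17 at D2 week 1, where the one used gave 0.99, and by 3.99 at B6 week 1.

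Over the 10 arrays the members followed each other unevenly. The correlation of each tested gene with the mean of the other 8, centred per gene, was highest for Pcna (Pearson's r = 0.972) and Mcm3 (0.920) and lowest for Pola2 (0.441) and Rrm2 (0.426). Without the B6 week 1 array Pcna was at 0.874 and Mcm3 at 0.780, but Mcm7 and Rrm2 were at −0.228 and −0.265. Among genes outside the set, those with the pattern most like the mean of the tested members were Tipin (0.954), Smc4 (0.950), Atad2 (0.944), Dnajc9 (0.943), Topbp1 (0.934), Mad2l1 (0.931), Tmed3 (0.927), Cxadr (0.924), Slbp (0.921) and Cdk5rap3 (0.916). Tipin and Topbp1 act at replication forks and origins, Smc4 is a condensin subunit, Mad2l1 a spindle checkpoint protein and Slbp the histone stem-loop binding protein. Without the B6 week 1 array the correlations of these 10 genes were 0.635 to 0.869, and the 10 genes then most like the mean, led by Vamp5 (0.979) and Apobec3 (0.977), shared 0 genes with the 10 named. The points of each correlation share the same 10 pools, with their strain and week, and the values are given as descriptions.

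Other genes of replication followed the same split between the strains at week 1 in part. Of 26 further licensing and firing genes, 4 were higher by at least 1 in D2 (median 0.26), against 12 in B6 (median 0.87). Lower by at least 1 was 1 of the 26 in each strain. Cdc45, Mcm10 and Orc2 went against the split, at 1.77, 1.57 and 0.87 in D2 and −1.15, 0.80 and −0.42 in B6. Geminin (Gmnn), which binds Cdt1, was higher by 0.67 in D2 and by 1.22 in B6, while Orc5, an origin recognition subunit, differed by 0.45 and 0.39. Of 28 polymerase and fork genes, 1 was higher by at least 1 in D2 (median 0.14) and 14 in B6 (median 1.03), among them Rpa1, a single-strand binding subunit, with 0.42 in D2 and 1.06 in B6. Prim1, the primase that works with Pola2 and was named after its values were seen, differed by −0.56 in D2 and 2.84 in B6. Of 11 nucleotide supply genes the counts were 0 in D2 and 5 in B6, with thymidylate kinase (Dtymk) at 0.31 and 1.34. Of these 11, 1 was lower by at least 1 in D2 and 0 in B6. Rrm1, the large subunit that pairs with Rrm2 and was also named after its values were seen, differed by 0.21 in D2 and 1.86 in B6. Unlike Rrm2, Rrm1 showed a difference of only −0.23 ± 0.24 between the strains over all weeks (limma adjusted p = 0.607). Of 8 chromatin assembly genes the counts were 0 in D2 and 4 in B6, with the maintenance methylase Dnmt1 at −0.29 and 1.04. No polymerase, fork or chromatin assembly gene was lower by at least 1 in either strain.

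Regulators of the cycle differed from week 0 in both directions. Of 28 G1/S regulators, 1 was higher by at least 1 in D2 and 8 in B6, and cyclin D1 (Ccnd1) was counted in both, with 1.41 in D2 and 2.00 in B6. Lower by at least 1 were 1 of the 28 in D2 and 0 in B6. Of 13 cell cycle inhibitors, 1 was higher by at least 1 in D2 and 2 in B6, and 2 were lower by at least 1 in each strain. The p21 gene Cdkn1a was at 9.26, 7.21, 5.99, 5.54 and 5.97 in D2 at weeks 0, 1, 4, 12 and 21, against 9.59, 8.61, 7.35, 5.85 and 8.78 in B6, but its diet difference of −2.51 ± 0.67 did not pass (limma adjusted p = 0.101). Of 25 mitosis genes, 2 were higher by at least 1 in D2 (median −0.16) and 20 in B6 (median 1.85), although only 10 of the 25 lay above the level set for testing. In D2 4 of the 25 were lower by at least 1, against 0 in B6. Mad2l1 differed by 0.27 in D2 and 3.36 in B6, Cdc20 by 0.76 and 2.42, Cdk1 by −0.42 and 2.02, and the centromere histone Cenpa by 0.03 and 1.73. The counts of higher genes are read against the same backgrounds as for the members at week 1. Of the 11059 genes kept, 352 were lower by at least 1 at D2 week 1 and 356 at B6 week 1. No such count with dim genes included is given here.

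**Figure D4:**
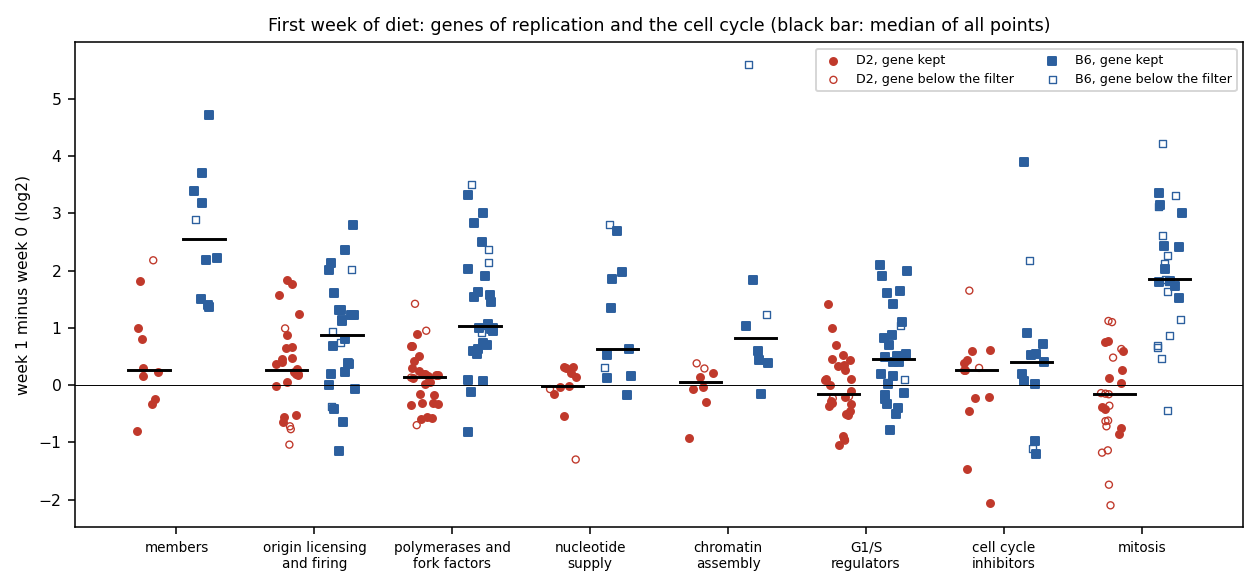
Week 1 minus week 0 (y axis, log2) for the 10 members and the genes of 7 further lists, D2 (circles) left of B6 (squares) in each list, with open symbols for genes below the level set for testing and black bars for medians over all points. In the mitosis list the medians are −0.16 in D2 and 1.85 in B6.

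In the tests over all weeks, few genes of these lists passed. Mcm10, which acts with the helicase at origin firing, was higher in D2 by 1.23 ± 0.17 (limma adjusted p = 0.00507, 5 of 5 weeks), the opposite direction to most members, but with the mean over its probe sets the difference was 0.28 (adjusted p = 0.617), and without week as a block the call was lost (adjusted p = 0.0781). The polymerase delta subunit Pold3 was higher in D2 by 0.90 ± 0.14 (adjusted p = 0.00818), a call lost on the scale of the deposited values (adjusted p = 0.0506) and without the week block (0.0581). E2f3 and E2f5, factors of the E2F family, were lower in D2 by 0.52 ± 0.12 and 0.44 ± 0.10 (adjusted p = 0.0374 and 0.0341), and both calls were lost without any 1 array and without the week block (adjusted p = 0.0696 and 0.122). Cyclin G2 (Ccng2), a cyclin of quiescent cells, was lower in D2 by 0.74 ± 0.14 (adjusted p = 0.0185) and lower in fed livers by 1.37 ± 0.18 (adjusted p = 0.0153). Leaving out an array of week 1, 12 or 21 ended the strain call (adjusted p as high as 0.0724), as did leaving out the week block (0.262), and leaving out a week 0 array ended the diet call (as high as 0.145). No other gene of the 7 lists passed a test.

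Markers of other liver cell types were set beside the members. The summed normalised signal of 12 macrophage markers, of which 11 lay above the level set for testing and Trem2 did not, was 2950, 3690, 2580, 2440 and 3550 in D2 at weeks 0, 1, 4, 12 and 21, against 2640, 5820, 14500, 2680 and 7990 in B6. It was thus highest in B6 at week 4, when the median level of the 10 members was 6.01, and not at week 1, when that median was 7.79. Single markers did not all share this peak. Within B6, Clec4f was at 9.48 at week 1 and 9.06 at week 4, and Vsig4 at 9.97 at week 21 and 9.47 at week 4. The other tested macrophage markers were highest in B6 at week 4. At B6 week 1, 6 of the 12 macrophage markers were higher than at week 0 by at least 1, against 10.7% of all genes with dim ones included. Among the 6 were Marco at 1.72 and Lyz2 at 2.01, while Adgre1 and Csf1r differed by 0.83 and 0.51. Lower by at least 1 was 1 marker, the dim Trem2, at −1.17. The macrophage marker Cd52 was lower in D2 over all weeks by 2.46 ± 0.49 (limma adjusted p = 0.022), a call that ended when an array of week 1 or 21 was left out (as high as 0.0698). The summed signal of 8 neutrophil and myeloid markers, 3 of them above the level set for testing, was 90.7 to 146 in fed D2 livers and 102 at week 0, against 81.9 to 680 in fed B6 livers and 55.3 at week 0. That of 8 T and NK cell markers, of which 1 lay above it, was 34.5 to 66.6 in fed D2 livers and 62 at week 0, against 67.8 to 205 in fed B6 livers and 68.4 at week 0. Of 7 erythroid markers 2 lay above it, and all 7 summed to 172 at D2 week 1, against 179 at B6 week 1, with 238 in D2 and 174 in B6 at week 0. These 3 sums are mostly of dim signals.

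Stellate cell markers, all 10 above the level set for testing, summed to 1940 to 2480 in fed D2 livers and 2410 at week 0, against 2700 to 4580 in fed B6 livers and 2480 at week 0. Their highest sum was in B6 at week 4, as for the macrophage markers, and the fed ranges of the strains did not overlap. How many of all genes showed no overlap is not given here, and a sum is carried by its brightest genes. Over all weeks the median strain difference of the 10 markers was −0.59. Reln alone was higher in D2, by 0.22, and Acta2 differed by −0.05. The collagen gene Col1a1 was lower in D2 over all weeks by 3.33 ± 0.59 (limma adjusted p = 0.0141), or by 1.76 with a pseudocount of 16, a call lost without either week 12 array (adjusted p as high as 0.0603). Lrat, which esterifies retinol, and lumican (Lum) were lower in D2 by 0.60 ± 0.12 and 0.68 ± 0.17 (limma adjusted p = 0.0203 and 0.0464), calls lost in 6 and 8 of the 10 fits that leave out 1 array. Sums of 8 endothelial markers, all above the level, were 1240 to 1480 in fed D2 livers and 1250 at week 0, against 1420 to 1690 in fed B6 livers and 1420 at week 0. The hyaluronan receptor Lyve1 was lower in D2 by 1.74 ± 0.19 (limma adjusted p = 0.00149), and this call held with any 1 array left out (adjusted p up to 0.00948). The Fc receptor Fcgr2b was lower in D2 by 0.45 ± 0.11 (limma adjusted p = 0.0483), a call lost in all 10 such fits. The other endothelial markers differed between the strains by −0.36 (Oit3) to 0.36 (Cdh5) and did not pass. The median over the 8 was −0.06.

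Of 7 B and plasma cell markers 6 lay above the level set for testing, and the sum of all 7 was 117 to 235 in fed D2 livers and 139 at week 0, against 124 to 544 in fed B6 livers and 164 at week 0. Blnk, an adaptor of B cell receptor signalling, was higher in fed livers by 1.68 ± 0.32 (limma adjusted p = 0.0462), a call lost in 7 of the 10 fits that leave out 1 array (adjusted p up to 0.265). The other tested B and plasma cell markers differed between fed and week 0 livers by −1.18 (Pax5) to 0.96 (Ms4a1) and did not pass. Of 7 cholangiocyte markers 2 lay above the level, and the sum of all 7 was 46.9 to 84.6 in fed D2 livers and 63 at week 0, against 70.5 to 106 in fed B6 livers and 119 at week 0. Quantile normalisation gives the brightest probe sets nearly the same value in every array, and most of the 10 hepatocyte markers are among these, so their sum shows that hepatocyte RNA was present and does not measure its share. The part of macrophages or other cells in the B6 week 1 levels of the replication genes was not tested.

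**Figure D5:**
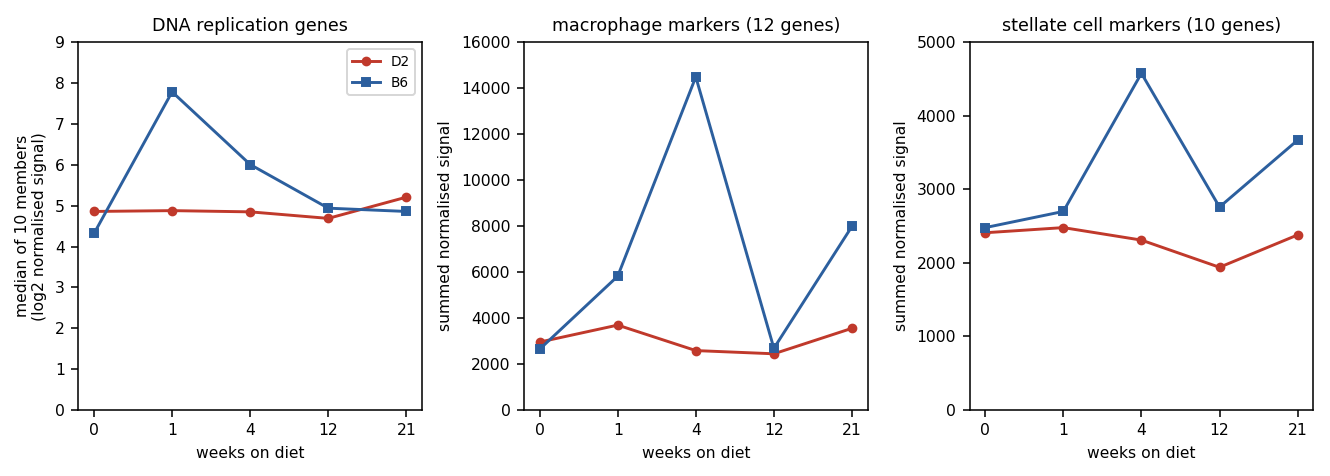
Median log2 level of the 10 genes (left), summed normalised signal of 12 macrophage markers (middle) and of 10 stellate cell markers (right) by weeks on the diet (x axis, weeks evenly spaced), D2 as circles and B6 as squares, 1 array per point. In B6 the members are highest at week 1 (7.79) and both marker sums at week 4 (14500 for macrophages and 4580 for stellate cells).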

How the data were processed

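Per the labels, total RNA of livers was extracted with Trizol, pooled from 5 mice for each strain and week and hybridised to 1 array per pool. The authors deposited linear signal intensities made with GCOS, per the submitters' processing notes; its version and scaling are not given in the sources used here. The arrays were quantile normalised with limma 3.58.1 in R 4.3.3 (with data.table version 1.17.8), because their 2% trimmed means differed by a ratio of 1.59, and analysed as log2(signal + 1.05), the 10th percentile of all deposited values being the pseudocount. Of 45101 probe sets, 64 controls, 932 with several symbols and 9160 with none were not used for genes, which left 34945. Genes whose mean exceeded the 50th percentile of all probe set means, 3.74, were tested.

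Week was a block in the D2 minus B6 comparison, since per the labels each week has a pool of either strain. The diet comparison had strain as a term, changes within strains and their difference came from 4 group means, and a slope on log2(week) with strain as a term gave the trend. All used lmFit and eBayes with trend, with p-values adjusted by Benjamini-Hochberg over 11059 genes and a threshold of 0.05. Weeks served as replicates, so errors include time on the diet, and each lone week 0 array took the fed arrays' spread. The fits were tested on simulated data. The members, the gene lists, the tests and the motifs were chosen with earlier results of these data known. Named were all members, list genes that passed a test or else up to 4 per list with the highest mean, and the 10 genes most correlated with the members; not all of them are printed.

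Alternatives were the deposited scale, median centring, a pseudocount of 16, no filter, the mean over probe sets, no trend, no week term and each array left out in turn. Plain probe sets and leaving out both week 1 arrays were added after seeing the data. Plots and motif counts were made in Python 3.11.15 (matplotlib 3.10.9, pandas 2.3.3).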

Additional observations from a re-analysis of the deposited data

Results flagged for a closer look

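Mcm6 in fed D2 livers had 1 array far from the other 3: its level at week 12 was 3.20, against 4.60 to 4.83 at the other fed weeks. This was by Dixon's test within a group of 4 arrays, which chance passes in about 1 group in 20. With 10 genes in both strains to look through, 1 such array may arise by chance. Mcm6 was also the member whose fed levels lay on opposite sides of week 0 in the strains, below week 0 in 4 of 4 fed D2 arrays and above it in 4 of 4 fed B6 arrays. The difference between these changes was −2.18, and as a pattern of signs it was not tested; the interaction term of limma for the same contrast had an adjusted p of 0.902.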

How the results depend on the processing

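The Rrm2 strain call held under every alternative (adjusted p 0.000635 to 0.0153) and with any 1 array left out (0.00251 to 0.0128); without the week term as replicate block it was −2.54 (adjusted p = 0.00267) and 775 genes were called instead of 882. Left at the deposited scale, the median of all genes was 0.52 higher in fed livers and −0.07 between strains, so fed calls there include that shift: 4990 genes changed with diet (4949 up, 41 down) against 72 (46 up, 26 down), 1946 within B6 against 13 and 45 within D2 against 13, members called were 3 with diet and 1 within B6, and 4 members were higher by at least 1 at D2 week 1; the strain split was 208 up and 403 down against 432 and 450. Median centring gave 313 diet genes (276 up, 37 down). A pseudocount of 16 gave 0 diet members, 0 B6, 2 D2 and 0 interaction genes, 0 members higher at D2 week 1, 4 at B6 week 4, a B6 week 1 median of 1.53, and 3 members lower in D2 at week 4. The mean over probe sets gave 0 diet members, 0 interaction genes and likewise 3 members at week 4. No filter gave 8 D2 genes, and no trend 33 B6, 38 D2 and 0 interaction genes. Without both week 1 arrays there were 587 strain, 3 B6, 8 D2 and 0 interaction genes, strain differences of 0.43 for Mcm4 and 0.26 for Mcm5, and a diet difference of −0.09 for Mcm7. Plain probe sets gave 0 interaction genes, 0.15 for Mcm5 between strains and a D2 diet median of −0.29 against 0.26, and the deposited scale −0.01 for Mcm7 between strains. With 1 array left out, genes called ranged from 386 to 714 (strain), 14 to 94 (diet), 0 to 22 (B6), 6 to 21 (D2) and 0 to 1 (interaction), and diet members from 0 to 1. Strain differences that changed sign ranged from −0.43 to 0.07 (Mcm2), −0.46 to 0.43 (Mcm4), −0.86 to 0.26 (Mcm5) and −0.08 to 0.37 (Mcm7), and diet differences from −0.64 to 1.54 (Mcm6) and −0.21 to 0.37 (Mcm7). The causes were not tested. Without a week 0 array the B6 or D2 diet change and the interaction could not be fitted. Signal near background limits Cdc6, and Pola2 and Mcm5 at week 0. No scanner values were used here, so background correction and slide were not tried.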
